A study of Mus musculus with 8 samples.

Results

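The C-type lectin receptors of myeloid cells are surface proteins with which macrophages, monocytes, neutrophils and dendritic cells recognise sugars and glycolipids of fungi, mycobacteria and damaged cells. The set described here was Clec7a, Clec4n, Clec4d, Clec4e, Clec4a2, Clec5a and Clec12a, picked by gene symbol, which gave 7 of the 37310 rows of the gene count table. All 7 were among the 14537 genes with enough counts to be tested, and all 7 lie on mouse chromosome 6.

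The libraries were bulk RNA-seq of mouse alveolar macrophages, the resident phagocytes of the airspace, in 4 groups of 2 libraries, and each library was a pool of 3 mice or cultures. The texAM cells were C57BL/6 alveolar macrophages grown in culture and given through the trachea to C57Bl/6-Ly5.1 mice. They were sorted from the lung 4 months later as SiglecF+ CD11c+ CD45.2+ cells. The exAM cells were cultured C57BL/6 alveolar macrophages, taken from the dish at 2 months without a sort. No length of culture is given here for texAM. The tAM cells were C57BL/6 alveolar macrophages that were never cultured, transplanted in the same way and sorted by the same gate after 4 months. The HostAM cells were the hosts' own alveolar macrophages, sorted as CD45.1+ cells of the Ly5.1 strain, so they differ from the other groups in strain and CD45 allele; the labels do not say whether these hosts had received cells. The labels give 8 weeks as the mouse age for all groups. Since texAM and tAM were sorted 4 months after transfer, this cannot be the age of those hosts at collection.

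Total counts ran between 6546272 and 9154128 per library, with the lowest in the exAM pair. The summed counts of 4 Y-linked genes were 0 and 0 in texAM, 105 and 104 in exAM, 0 and 0 in tAM, and 0 and 2 in HostAM, so the exAM pools held male cells and differ from the lung groups in this as well. The exAM pools therefore cannot be taken as the texAM cells before transfer, whose levels were not measured. Levels are given as CPM, counts scaled to the same total in every library after adjustment of library size by TMM. The alveolar macrophage marker list of 11 genes summed to 2511 and 2775 CPM in texAM, 3385 and 2910 CPM in exAM, 2832 and 3018 CPM in tAM, and 2670 and 2660 CPM in HostAM. Among its genes, Epcam had 0 counts in both exAM libraries, Krt79 averaged 169 CPM in texAM, 1.73 CPM in exAM, 199 CPM in tAM and 186 CPM in HostAM, and Siglecf, the sort marker, averaged 300, 186, 338 and 300 CPM in the same 4 groups; in all, 5 of the 11 were called higher and 3 lower in exAM than in tAM. Neutrophils also carry many of these receptors, and their marker list summed to 478 and 318 CPM in texAM, 429 and 275 CPM in exAM, 270 and 291 CPM in tAM, and 324 and 308 CPM in HostAM, and Ly6g and Mpo were at 0 in every library. Single genes of that list separated exAM in both directions, with 2 of the 6 tested called higher and 3 lower than in tAM. S100a8 averaged 31.5 CPM in texAM, 54.2 CPM in exAM, 17.4 CPM in tAM and 11.8 CPM in HostAM. Csf3r averaged 105, 1.10, 81.2 and 126 CPM in the same 4 groups. S100a9 had 64.6 and 25.8 CPM in texAM and 0.343 and 0 CPM in exAM. In tAM it had 8.36 and 7.02 CPM, and in HostAM 5.29 and 14.2 CPM. Mmp8 had the most counts of that list, 7789 over all libraries. The monocyte list summed to 105 and 73.7 CPM in texAM, 7.72 and 6.64 CPM in exAM, 30.8 and 41.3 CPM in tAM, and 37.9 and 70.8 CPM in HostAM. The dendritic cell list summed to 650 and 625 CPM in texAM and 372 and 332 CPM in exAM. It summed to 648 and 661 CPM in tAM and 716 and 825 CPM in HostAM. Wdfy4 held most of its counts, 33507 over all libraries. All 9 genes were tested, and 5 were called lower and 0 higher in exAM than in tAM. Epithelial markers summed to between 506 and 629 CPM in texAM, 378 and 429 CPM in exAM, 524 and 553 CPM in tAM, and 690 and 746 CPM in HostAM, and red cell and platelet markers to between 58.9 and 77.3 CPM in texAM, 0.154 and 1.20 CPM in exAM, 47.1 and 52.3 CPM in tAM, and 101 and 155 CPM in HostAM. Of the 8 epithelial markers, 7 were called lower and 1 higher in exAM than in tAM, and 4 and 2 had any counts in the exAM libraries. Cdh1 had the most counts of that list, 17004 over all libraries, with a log2 fold change of 0.76 for exAM over tAM. Endothelial and stromal markers summed to between 240 and 324 CPM in the 8 libraries. Most of their counts were of Vwf, at 16407 over all libraries. Of the 4 tested, 3 were called higher in exAM than in tAM and 0 lower. Markers of eosinophils, basophils and mast cells summed to at most 1.37 CPM. The part of these lists in the receptor differences was not tested. In bulk RNA, fewer cells of a type and less RNA per cell cannot be told apart.

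C-type lectin receptors reach the cell interior in a few ways. Clec7a (Dectin-1, the receptor for fungal beta-glucan) carries its own activating tail, Clec4n (Dectin-2, mannans), Clec4d (MCL) and Clec4e (Mincle, mycobacterial trehalose dimycolate) signal through the Fc receptor gamma chain encoded by Fcer1g, and Clec5a (MDL-1) uses DAP12, encoded by Tyrobp. These routes recruit the kinase Syk and then the Card9, Bcl10 and Malt1 module, which switches on NF-kappaB and inflammatory cytokines. Clec4a2 (DCIR) and Clec12a (MICL) carry inhibitory tails that recruit the phosphatases Ptpn6 and Ptpn11.

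The cultured cells stood apart from all 3 lung groups, with Clec4d and Clec4e moving in opposite directions. Against tAM, Clec4d was 6.56-fold higher in exAM and Clec4e 2.90-fold lower, while Clec5a was 2.43-fold, Clec7a 1.62-fold and Clec4n 1.36-fold higher. Clec4a2 and Clec12a, the pair with inhibitory tails, were not called between exAM and tAM. In the transplanted cultured cells, texAM, Clec4d and Clec4e were near the levels of tAM and HostAM, and no member was called between any pair of lung groups.

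**Figure D1:**
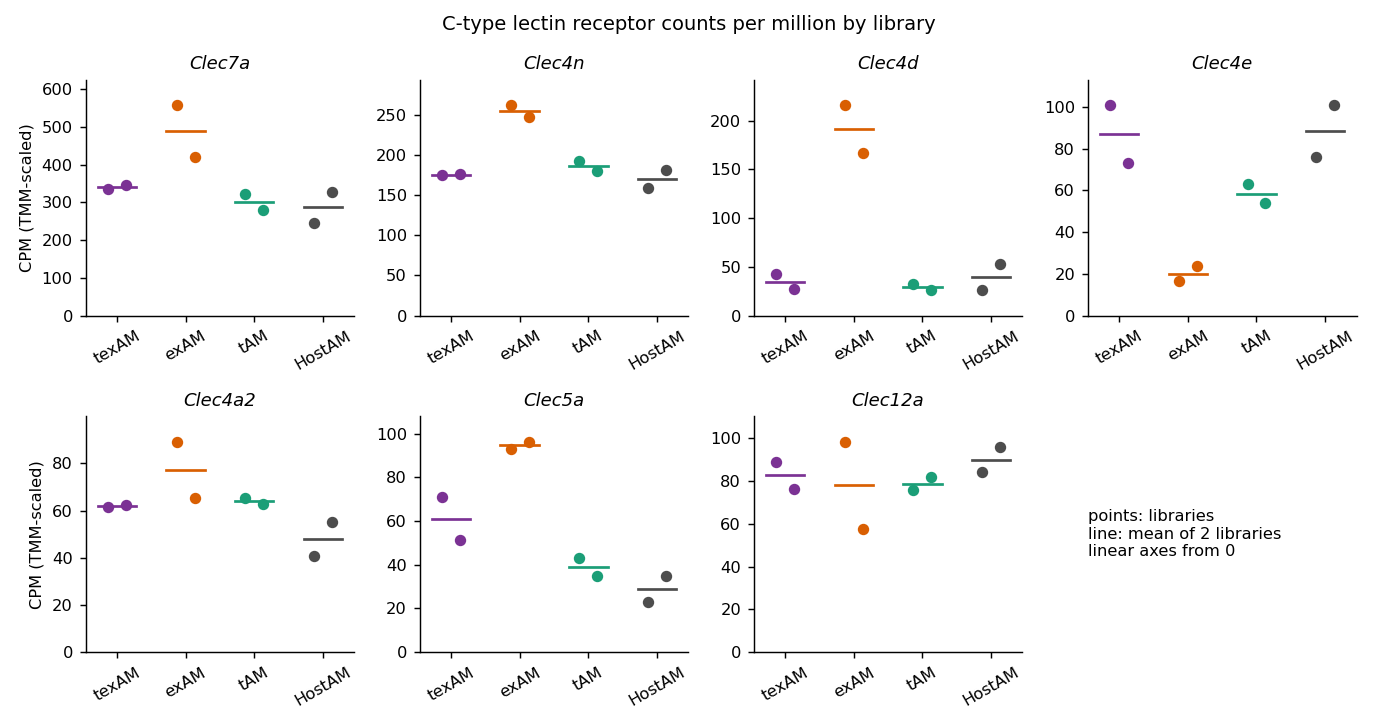
Level of each receptor in every library, in CPM on a linear axis, with texAM, exAM, tAM and HostAM from left to right; each point is 1 library and each bar the mean of 2. The exAM libraries lie above all others for Clec4d (216 and 167 CPM) and below all others for Clec4e (16.5 and 23.8 CPM).

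Clec4d and Clec4e are neighbours that face each other. On GRCm38, Clec4d runs along the plus strand at chr6:123262111-123275265 and Clec4e along the minus strand at chr6:123281789-123289870, each with 6 exons in its longest coding transcript, and 6523 bases separate them. In mice, MCL and Mincle are known to bind each other and to share ligands. Their promoters are shown because these adjacent genes differed most and in opposite directions, and that of Clec5a because it was the next largest change. Each sequence is the RefSeq window of 250 bases before to 50 bases after the gene's start (GRCm38.p6), and capitals mark 2 motifs searched on both strands, the PU.1 core GAGGAA and the C/EBP site TTGCNNAA. PU.1 and C/EBP are transcription factors of the myeloid lineage.
Clec4d, chr6:123261857-123262156, plus strand: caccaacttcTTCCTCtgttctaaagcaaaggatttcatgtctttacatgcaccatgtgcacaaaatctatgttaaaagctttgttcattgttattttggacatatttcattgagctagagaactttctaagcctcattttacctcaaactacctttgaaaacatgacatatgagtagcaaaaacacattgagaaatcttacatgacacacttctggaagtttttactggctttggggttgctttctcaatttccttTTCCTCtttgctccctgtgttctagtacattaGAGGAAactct
Clec4e, chr6:123289822-123290121, minus strand: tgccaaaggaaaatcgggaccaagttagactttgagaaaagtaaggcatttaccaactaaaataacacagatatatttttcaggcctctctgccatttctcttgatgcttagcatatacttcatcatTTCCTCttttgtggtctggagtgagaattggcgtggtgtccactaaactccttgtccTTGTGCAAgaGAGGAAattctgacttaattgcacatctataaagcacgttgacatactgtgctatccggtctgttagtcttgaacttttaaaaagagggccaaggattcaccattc
Clec5a, chr6:40585756-40586055, minus strand: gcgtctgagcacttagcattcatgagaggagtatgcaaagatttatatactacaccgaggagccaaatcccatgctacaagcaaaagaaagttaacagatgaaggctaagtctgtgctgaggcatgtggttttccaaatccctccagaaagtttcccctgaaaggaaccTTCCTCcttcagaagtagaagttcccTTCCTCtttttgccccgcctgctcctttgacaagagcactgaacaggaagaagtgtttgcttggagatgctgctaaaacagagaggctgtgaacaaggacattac
The Clec4d window held 3 matches to GAGGAA, the Clec4e window 2, and the Clec5a window 2. Only the Clec4e window of these 3 held TTGCNNAA, in 1 copy that does not overlap a GAGGAA match. Of 32851 mouse promoter windows of this length, 28.3% hold GAGGAA and 10.8% hold TTGCNNAA. TGANTCA, the AP-1 motif, was found in none of the 3 windows, and neither was TCANGTG, the MITF/TFE motif; 7.8% and 14.3% of all windows hold these 2 motifs. A match describes the letters only.

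Clec4d, which encodes MCL, had 42.1 and 26.8 CPM in texAM, 216 and 167 CPM in exAM, 32.5 and 25.7 CPM in tAM, and 26.3 and 53.3 CPM in HostAM. Both exAM libraries lay above all 6 lung libraries, which overlapped one another. The log2 fold change was 2.71 ± 0.33 (SE) for exAM over tAM (edgeR quasi-likelihood test, Benjamini-Hochberg adjusted p = 0.000105), -2.47 ± 0.32 for texAM over exAM (adjusted p = 0.000183) and 2.27 ± 0.32 for exAM over HostAM (adjusted p = 0.000296). These 3 comparisons share the 2 exAM libraries, so they are not independent of one another.

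Clec4e, which encodes Mincle, showed the reverse order. It had 101 and 73.3 CPM in texAM, 16.5 and 23.8 CPM in exAM, 63.1 and 53.9 CPM in tAM, and 75.9 and 101 CPM in HostAM. No exAM library reached the lowest lung library, and the tAM pair lay below the other 4 lung libraries. The log2 fold change was -1.54 ± 0.24 for exAM over tAM (edgeR, adjusted p = 0.000628), 2.11 ± 0.24 for texAM over exAM (adjusted p = 8.66e-05) and -2.13 ± 0.25 for exAM over HostAM (adjusted p = 7.97e-05). Within each library, the number of Clec4d counts per Clec4e count was 0.417 and 0.365 in texAM, 13.1 and 7.03 in exAM, 0.515 and 0.477 in tAM, and 0.347 and 0.527 in HostAM. The scaling by library size cancels in this ratio, which exceeded 1 only in exAM. Raw counts of genes with many counts per base followed depth less, as given below, and that part does not cancel.

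**Figure D2:**
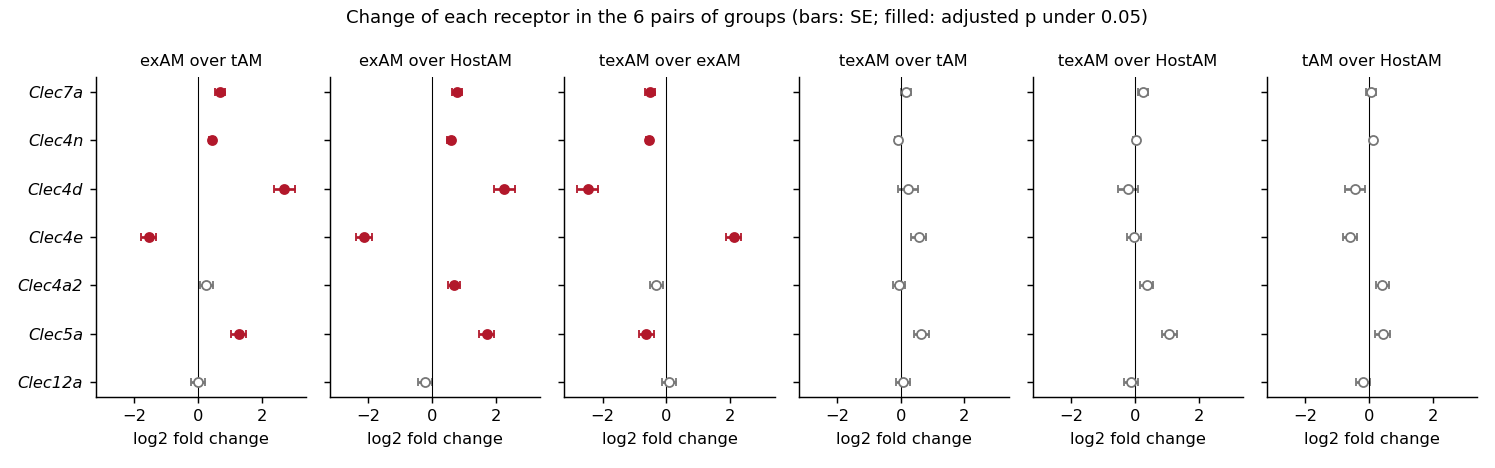
Log2 fold change of each receptor in the 6 comparisons, with bars for 1 SE on each side from the edgeR fit; filled points have an adjusted p under 0.05. Clec4d and Clec4e point opposite ways in all 3 comparisons that hold exAM, and no point is filled in the 3 comparisons between lung groups.

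Clec5a, the DAP12-coupled receptor, lies apart from the others at chr6:40574894-40585821 on the minus strand. Its level was 71.0 and 51.2 CPM in texAM, 93.1 and 96.3 CPM in exAM, 43.1 and 34.7 CPM in tAM, and 22.9 and 35.0 CPM in HostAM. It was highest in exAM, intermediate in texAM and lowest in tAM and HostAM, whose libraries overlapped. The exAM level exceeded tAM by 1.28 ± 0.23 on the log2 scale (edgeR, adjusted p = 0.00149) and HostAM by 1.71 ± 0.24 (adjusted p = 0.000283). The texAM level was lower than that of exAM, with a log2 fold change of -0.63 ± 0.23 (adjusted p = 0.0465), a call that was lost in 8 of 17 alternative settings, among them the fits without either exAM library (0.111 and 0.136) and without texAM replicate 2 (0.274). The texAM pair lay above HostAM by 1.08 ± 0.24 without passing the test (adjusted p = 0.10), and above tAM by 0.65 ± 0.23 (adjusted p = 0.573). The first of these passed in DESeq2 (adjusted p = 0.00280), so the Clec5a level of texAM against HostAM depends on the test used.

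Clec7a, the beta-glucan receptor at chr6:129461591-129472779 on the minus strand, had the highest CPM of the set. It had 335 and 345 CPM in texAM, 558 and 420 CPM in exAM, 322 and 281 CPM in tAM, and 245 and 328 CPM in HostAM. Both exAM libraries were above the lung libraries. The log2 fold change was 0.70 ± 0.16 for exAM over tAM (edgeR, adjusted p = 0.00491), -0.52 ± 0.16 for texAM over exAM (adjusted p = 0.0206) and 0.77 ± 0.16 for exAM over HostAM (adjusted p = 0.00285). Without exAM replicate 1 the difference between texAM and exAM was not called (adjusted p = 0.144), nor was it without texAM replicate 1 (0.0918) or texAM replicate 2 (0.0719).

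Clec4n, the mannan receptor, lies at chr6:123229843-123247021 on the plus strand, on the far side of Clec4d from Clec4e. Its values were 175 and 177 CPM in texAM, 263 and 248 CPM in exAM, 193 and 181 CPM in tAM, and 159 and 182 CPM in HostAM. The exAM pair was higher than every lung library, with log2 fold changes of 0.45 ± 0.10 over tAM (edgeR, adjusted p = 0.00556) and 0.58 ± 0.10 over HostAM (adjusted p = 0.00131). For texAM over exAM it was -0.54 ± 0.10 (adjusted p = 0.00206). The call against tAM was lost without tAM replicate 2 (adjusted p = 0.0511).

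The CPM differences of Clec4n and Clec7a have to be read beside their raw counts. Clec4n had between 1441 and 1674 raw counts in the 8 libraries, a 1.16-fold range, and its raw counts in exAM were 1.01 times those in tAM. Clec7a had between 2227 and 3255 raw counts, a 1.46-fold range, and its exAM to tAM ratio of raw counts was 1.19. Both averaged more than 1 count per base of their longest coding transcript, at 1.27 for Clec4n and 1.22 for Clec7a. Across the 266 tested genes in that range, raw counts hardly followed depth: the median log2 ratio of texAM replicate 1 over texAM replicate 2 was 0.03, against 0.13 for the library totals. The median log2 fold change of those 266 genes for exAM over tAM was 0.29, with 52.3% called higher and 13.2% called lower. Clec4n at 0.45 and Clec7a at 0.70 stand beside that value, and whether their RNA level differed between the cells was not tested apart from this limit of the counts. Clec4d, with an average of 0.393 counts per base, and Clec4e, with 0.218, lay below that range, and their raw counts spanned 6.13-fold and 10.1-fold. In exAM, though, Clec4d had 0.950 and 0.818 counts per base. The 935 genes averaging 0.5 to 1 count per base had a median log2 ratio of 0.08 for texAM replicate 1 over replicate 2. Whether this limit enters the exAM level of Clec4d was not tested.

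**Figure D3:**
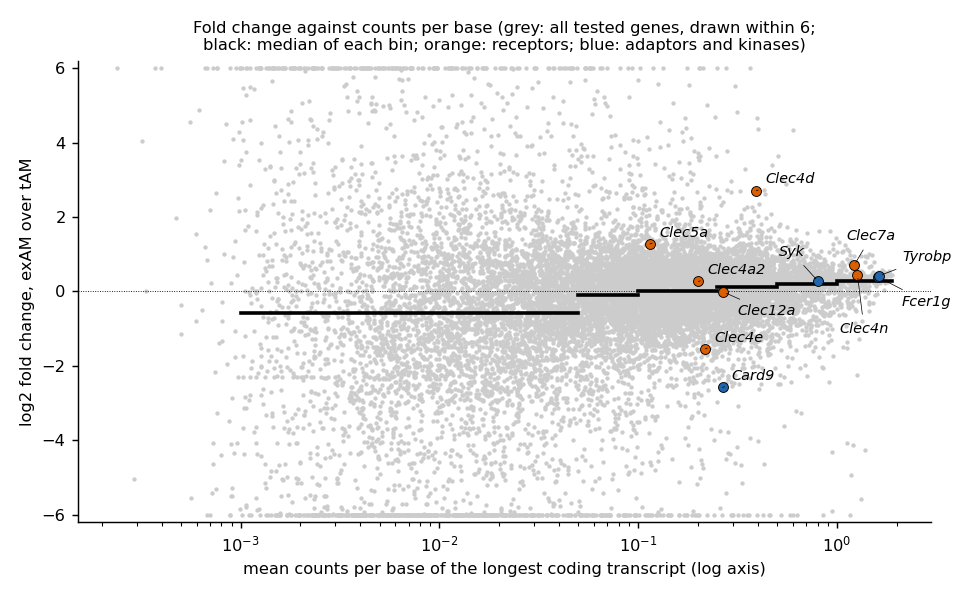
Log2 fold change of exAM over tAM against mean counts per base of the longest coding transcript (log axis) for all tested genes, in grey and drawn within 6; the black steps are bin medians, orange points the receptors and blue points Fcer1g, Tyrobp, Syk and Card9. Clec7a and Clec4n sit with Fcer1g and Tyrobp beyond 1 count per base, where the median is 0.29, while Clec4d, Clec5a, Clec4e and Card9 lie far from the median of their bins.

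Clec4a2, the inhibitory DCIR, lies at chr6:123106428-123143999 on the plus strand. It had 61.5 and 62.4 CPM in texAM, 89.2 and 65.5 CPM in exAM, 65.2 and 62.7 CPM in tAM, and 40.7 and 55.3 CPM in HostAM. The exAM pair exceeded all lung libraries, but the gap to tAM replicate 1 was small. The log2 fold change was 0.27 ± 0.20 for exAM over tAM (edgeR, adjusted p = 0.281), -0.32 ± 0.20 for texAM over exAM (adjusted p = 0.210) and 0.69 ± 0.20 for exAM over HostAM (adjusted p = 0.0174). That last call was lost without exAM replicate 1 (adjusted p = 0.149) and without HostAM replicate 1 (0.105). Of the 50-base stretches in Clec4a2 transcripts, 8.36% also occur in other genes, mainly Clec4a4 and Clec4b1, so its counts carry that uncertainty; for the other 6 members the share was at most 0.932%.

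Clec12a, the inhibitory MICL, showed no difference that passed the test in any comparison. At chr6:129342691-129365303 on the plus strand, it had 88.9 and 76.3 CPM in texAM, 98.3 and 57.6 CPM in exAM, 75.6 and 81.6 CPM in tAM, and 84.0 and 95.8 CPM in HostAM. The 2 exAM libraries spanned the values of all lung libraries. Its log2 fold change was -0.01 ± 0.22 for exAM over tAM (edgeR, adjusted p = 0.963), 0.09 ± 0.22 for texAM over exAM (adjusted p = 0.773) and -0.21 ± 0.22 for exAM over HostAM (adjusted p = 0.465). The spread of the exAM pair set this value: without exAM replicate 2 the exAM over tAM value was 0.34, without exAM replicate 1 it was -0.43, and with DESeq2 size factors it was 0.01. Without exAM replicate 1, the exAM over HostAM value was -0.63 and passed (edgeR, adjusted p = 0.0337).

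Counted together, 4 members were called higher and 1 lower in exAM than in tAM. Of all 14537 tested genes, 44.7% were called in this comparison, 21.5% higher and 23.2% lower in exAM, and the median log2 fold change was 0.45 over the members and -0.09 over all tested genes. Between texAM and exAM, 1 member was higher and 4 were lower in texAM, beside 43.7% of all genes called, 23.2% higher and 20.5% lower; the medians were -0.52 over the members and 0.11 over all genes. Against HostAM, 5 members were higher and 1 was lower in exAM, beside 44.1% of all genes called, 20.9% higher and 23.3% lower; these medians were 0.69 and -0.08. The member medians of 0.45 and -0.52 were the values of Clec4n and Clec7a, both called and both averaging over 1 count per base. The 266 tested genes in that range had medians of 0.29 for exAM over tAM and -0.40 for texAM over exAM. The limit given above for these counts thus holds for the member medians too. The 6 members other than Clec12a did not overlap between exAM and a lung group, beside 76.4% of all genes against tAM, 77.5% against texAM and 73.7% against HostAM. Calls were therefore common in every comparison with exAM, whatever the gene. The exAM cells differ from all lung groups in being taken from the dish, in sorting and in the sex of the pools at once. They also differ from texAM and tAM in transfer, from tAM and HostAM in past culture, and from HostAM in strain. Within a comparison, these differences cannot be told apart.

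Between texAM and tAM no member was called, beside 0.00688% of all genes (1 gene, higher in texAM), and DESeq2 called none either. The libraries of texAM and tAM did not overlap for 5 members (all but Clec4d and Clec12a), beside 42.1% of all genes. At an unadjusted p under 0.05 edgeR listed 2 members, Clec4e and Clec5a, among 1139 genes. Clec4e lay 0.57 ± 0.23 higher in texAM (edgeR, adjusted p = 0.596), and the other members lay between -0.09 and 0.65. Against HostAM, texAM had no called member beside 0.330% of all genes (0.248% higher and 0.0825% lower), with Clec5a alone at an unadjusted p under 0.05 and called by DESeq2; 3 members, Clec7a, Clec4a2 and Clec5a, did not overlap, beside 42.8% of all genes. The comparison of tAM with HostAM likewise had no called member, beside 0.0413% of all genes (0.0206% in each direction) and none in DESeq2, and 3 members, Clec4e, Clec4a2 and Clec12a, did not overlap, beside 37.8% of all genes. Clec4e had an unadjusted p under 0.05 there, with a log2 fold change of -0.60 ± 0.23 (edgeR, adjusted p = 0.405). For Clec4d these 3 lung comparisons gave 0.24, -0.21 and -0.45 with adjusted p between 0.693 and 0.890. With 2 pools a group, such differences were not detectable at this size, and their absence is not shown.

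Per kilobase of the longest coding transcript, the order of the members also differed in exAM. Clec7a averaged 149 CPM per kilobase in texAM, 215 in exAM, 133 in tAM and 126 in HostAM. Clec4n stood beside it at 143 CPM per kilobase in texAM, 208 in exAM, 152 in tAM and 139 in HostAM, and the library ranges of this pair of genes overlapped in exAM and HostAM but not in texAM or tAM. In the lung groups the remaining members were all at 35.9 CPM per kilobase or less, with Clec5a lowest in each. In exAM, Clec4d averaged 145 CPM per kilobase and followed this pair, and Clec4e came last at 7.99. The 7 genes summed to 875 and 812 CPM in texAM, 1334 and 1078 CPM in exAM, 795 and 721 CPM in tAM, and 654 and 851 CPM in HostAM, and Clec7a supplied between 37.5% and 42.5% of that sum in each library. Clec4n supplied between 19.7% and 25.1%, so the limit given above for the counts of Clec4n and Clec7a enters the sum.

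All members but Clec5a sit in the 2 lectin clusters of chromosome 6, and neighbours there did not all share a direction. The log2 fold changes quoted here are exAM over tAM. Clec4a1, Clec2i and Cd69 of these clusters were also called lower in exAM but are left out of the listing. Along the first cluster Clec4a3 stood at -3.26 (edgeR, adjusted p = 2.11e-07), Clec4b1 at -1.58 (0.00462; -2.22 without exAM replicate 1), Clec4a2 at 0.27 (0.281), Clec4n at 0.45, Clec4d at 2.71 and Clec4e at -1.54. The sign thus turned both between Clec4b1 and Clec4n and between Clec4d and Clec4e. In the second cluster Clec2d stood at -1.32 (adjusted p = 5.60e-05), Clec12a at -0.01, Clec1b at -1.90 (2.08e-05), Clec9a at 0.94 (0.0202; not called without exAM replicate 1 or tAM replicate 2, both 0.140), Clec1a at -0.48 (0.303), Clec7a at 0.70 and Olr1 at 0.93 (2.23e-05). Clec4a3, a relative of Clec4a2, averaged 128 CPM in texAM, 13.8 CPM in exAM, 133 CPM in tAM and 120 CPM in HostAM, so 2 related genes of 1 cluster had unlike profiles.

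**Figure D4:**
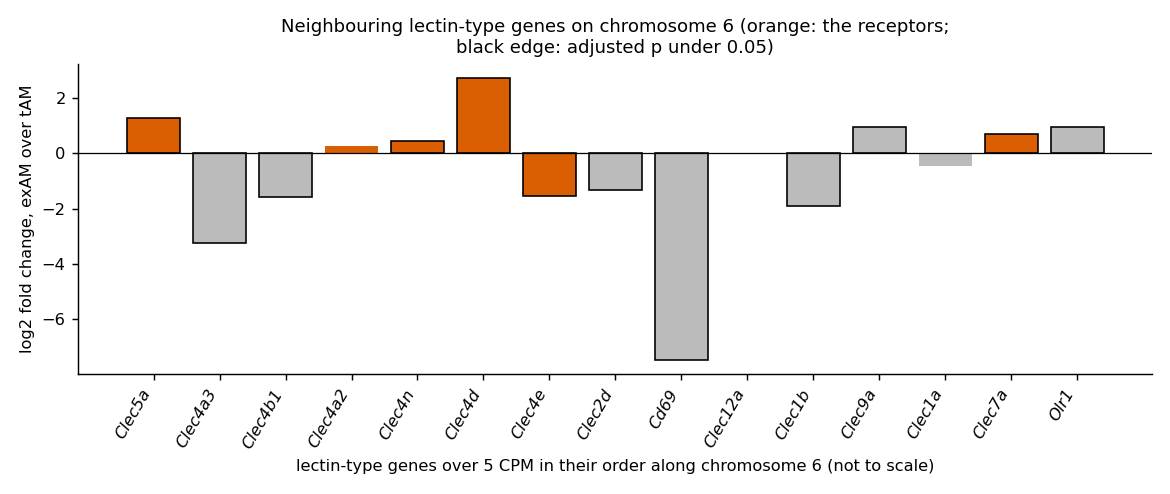
Log2 fold change of exAM over tAM for lectin-type genes over 5 CPM in exAM or tAM, in their order along chromosome 6 and not to scale; orange bars are the receptors described here and a black edge marks an adjusted p under 0.05. Clec4d (2.71) and Clec4e (-1.54) stand side by side with opposite signs; the Cd69 bar rests on 1 count in exAM.

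A wider list held 35 other lectin-type genes. Of the 22 tested, 6 were higher and 12 lower in exAM than in tAM, beside 21.5% and 23.2% of all tested genes, and the list was not tested against the 7 members. The list's median log2 fold change was -1.45, beside -0.09 for all tested genes, unchanged with genes at 0 counts set to 3 counts over the group. Cd93 was 13.8-fold higher, at 125 CPM in texAM, 839 CPM in exAM, 60.6 CPM in tAM and 66.2 CPM in HostAM. Colec12, a scavenger receptor, was 8.01-fold higher in exAM than in tAM. Cd209b, a relative of DC-SIGN, was 11.0-fold lower; it had 18 counts in exAM replicate 1 and 1 in exAM replicate 2, and without exAM replicate 2 the fold was 5.59. Cd69, an activation marker of lymphocytes, had 1 count over both exAM libraries and 281 over both tAM libraries, a 208-fold ratio with a 95% counting interval of 37.1 to 8262. The lymphocyte markers summed to 127 and 103 CPM in texAM, 2.23 and 0.926 CPM in exAM, 31.0 and 79.4 CPM in tAM, and 18.2 and 54.0 CPM in HostAM; their part in the Cd69 difference was not tested. Between texAM and exAM, 11 of the 22 were higher and 6 lower in texAM, beside 23.2% and 20.5% of all tested genes, and their median of 1.15 became 1.16 with genes at 0 counts set to 3 counts over the group.

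The adaptors of the receptors differed by small folds, and Card9 was several-fold lower in exAM. Fcer1g averaged 122 CPM in texAM, 175 CPM in exAM, 134 CPM in tAM and 125 CPM in HostAM, and Tyrobp averaged 106, 157, 118 and 109 CPM in the same 4 groups. Both were called higher in exAM than in tAM, at 0.39 ± 0.11 (edgeR, adjusted p = 0.0185) and 0.42 ± 0.12 (adjusted p = 0.0157). Without exAM replicate 1 neither was called (adjusted p = 0.0991 and 0.0888), nor was either without tAM replicate 1 (0.117 and 0.0993), and Fcer1g was not called without tAM replicate 2 (0.0524). Their raw counts stayed between 1072 and 1123 for Fcer1g and between 963 and 981 for Tyrobp, at over 1 count per base, so the limit given for Clec4n holds for them too. Syk, with 0.807 counts per base, was 0.27 ± 0.10 higher in exAM (adjusted p = 0.0398), a call lost without any 1 of the exAM, tAM or texAM libraries except exAM replicate 2 (adjusted p between 0.0633 and 0.25), beside a median of 0.20 among the 935 genes with 0.5 to 1 count per base.

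Card9 had 61.0 and 79.1 CPM in texAM, 12.0 and 11.9 CPM in exAM, 73.4 and 70.1 CPM in tAM, and 103 and 68.3 CPM in HostAM. Both exAM libraries lay far below the 6 lung libraries. It was 6.00-fold lower in exAM than in tAM (log2 fold change -2.58 ± 0.24, edgeR, adjusted p = 1.80e-05) and 5.85-fold higher in texAM than in exAM (adjusted p = 2.14e-05). Its partners Bcl10 and Malt1 were not called between exAM and tAM, at -0.00 ± 0.14 (adjusted p = 0.989) and 0.33 ± 0.19 (adjusted p = 0.191). Among all 29 adaptor and signalling genes, 11 were higher and 8 lower in exAM than in tAM, beside 21.5% and 23.2% of all tested genes, with a median of -0.00 beside -0.09. Higher genes included Traf6, a ubiquitin ligase, by 2.75-fold, and the kinase Src by 6.90-fold, which was not called without exAM replicate 1 (adjusted p = 0.0591) or tAM replicate 2 (0.0638). Map3k14, the kinase of the alternative NF-kappaB route, was 9.07-fold lower (13.8-fold without exAM replicate 2) and Fgr, a Src-family kinase, 2.81-fold lower. The phosphatases recruited by inhibitory tails differed in direction. Ptpn6 averaged 242 CPM in texAM, 104 CPM in exAM, 252 CPM in tAM and 254 CPM in HostAM (-1.27 ± 0.09 for exAM over tAM, adjusted p = 3.96e-06). Ptpn11 averaged 172 CPM in texAM, 223 CPM in exAM, 150 CPM in tAM and 167 CPM in HostAM (0.57 ± 0.16, adjusted p = 0.0159), a call lost without exAM replicate 1 (0.116) or tAM replicate 1 (0.130).

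Of 20 genes known to be induced through these receptors 13 were tested. In exAM against tAM 1 was higher and 5 were lower, beside 21.5% and 23.2% of all tested genes, with a median of -0.83 beside -0.09. Tnf averaged 95.7 CPM in texAM, 29.7 CPM in exAM, 66.0 CPM in tAM and 76.7 CPM in HostAM, and was 2.22-fold lower in exAM than in tAM (edgeR, adjusted p = 0.00123). Cxcl2, a neutrophil-attracting chemokine, was 4.30-fold lower and Irf5 2.78-fold lower. Ccl3 was the exception at 20.2 CPM in texAM, 215 CPM in exAM, 10.5 CPM in tAM and 27.6 CPM in HostAM, which is 20.3-fold higher in exAM than in tAM. Between texAM and exAM, 8 of the 13 were higher and 1 lower in texAM, beside 23.2% and 20.5% of all tested genes, and their median was 1.72 beside 0.11. Ptgs2, which encodes cyclooxygenase-2, had 25.1 and 6.16 CPM in texAM and 0.172 and 1.70 CPM in exAM, a 16.1-fold difference that was 6.38-fold and not called without texAM replicate 1 (adjusted p = 0.0605). It was 25.8-fold without texAM replicate 2 and 8.94-fold without exAM replicate 1, while exAM replicate 1 held 1 count. Il12b, with 0 counts in exAM, was at least 32.0-fold higher in texAM with 3 counts over the group as the floor.

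**Figure D5:**
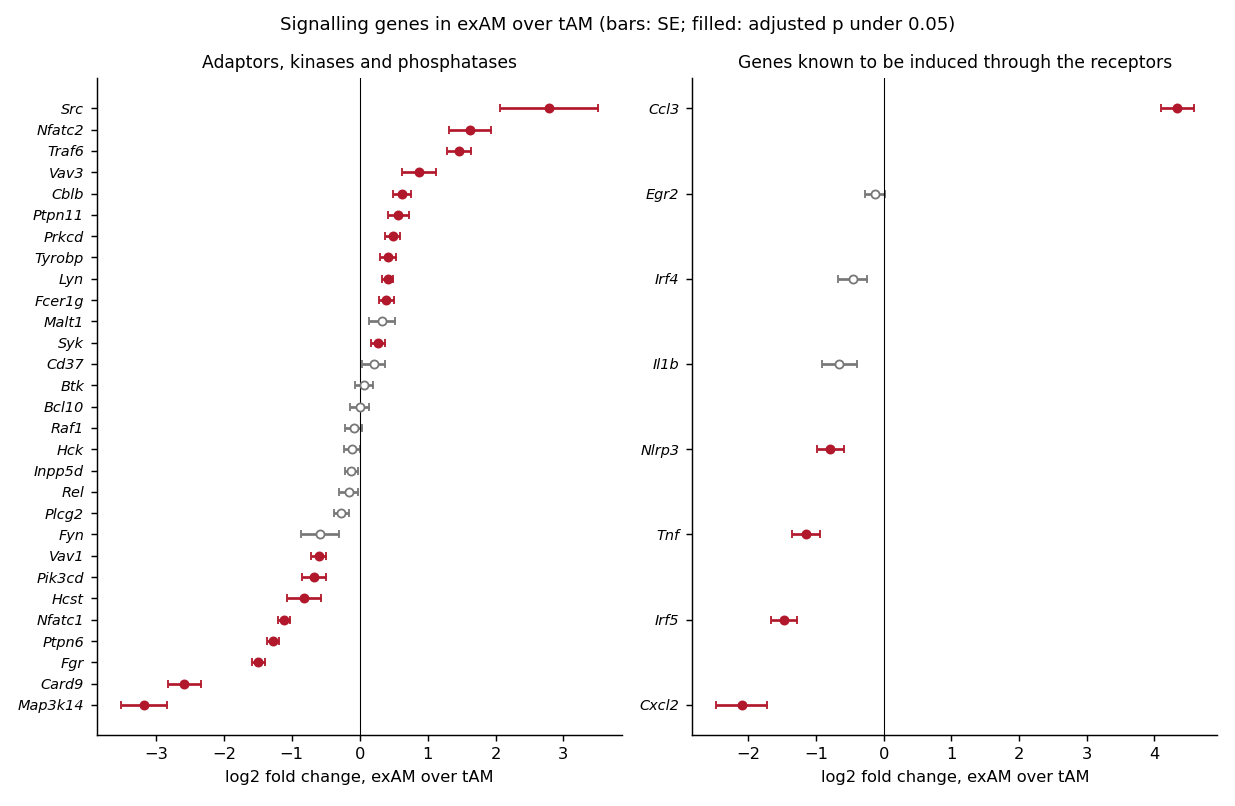
Log2 fold change of exAM over tAM for the adaptor and signalling genes and for genes known to be induced through the receptors, each over 5 CPM in exAM or tAM; filled points have an adjusted p under 0.05. Card9 (-2.58) and Map3k14 (-3.18) lie at the low end of the first panel, and Ccl3 (4.34) stands alone at the high end of the second.

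The genes whose profile was most like that of each member were found by the smallest root mean square difference in centred log2 CPM over the 8 libraries, among 10140 genes of at least 5 CPM. Clec4d was closest to Ralgapa2 (0.20), Rnf2 (0.20) and Slc37a2 (0.21); Ralgapa2 averaged 75.4 CPM in texAM, 371 CPM in exAM and 57.7 CPM in tAM. For Clec4e the nearest were Nnat (0.22), Rab27a (0.24) and Cntln (0.24), and Rab27a averaged 66.6 CPM in texAM, 17.0 CPM in exAM and 47.2 CPM in tAM. Clec5a was nearest to Plekha8 (0.13), Strn3 (0.15) and Exoc5 (0.16). The closest gene was Itm2b for Clec4n (0.03), Cul3 for Clec7a (0.06), Zfp451 for Clec4a2 (0.06) and Kcnab2 for Clec12a (0.12). All libraries enter each of these distances, and shared depth enters them too.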

How the data were processed

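Bulk RNA-seq of 8 libraries was analysed. The deposited values are raw read counts per gene, made by the authors; the submitters' processing notes name Bowtie, HTSeq 0.6.1, R 3.3 and GRCm38 without roles, and per the labels' protocols RNA was amplified with the NuGEN Ovation V2 system. Groups came from the sample titles; the columns teAM were taken as texAM. Genes passing edgeR's filterByExpr (minimum count 10) were scaled by TMM and tested with edgeR 4.0.16 (limma 3.58.1, R 4.3.3), quasi-likelihood, robust, with all 8 libraries, 1 coefficient a group and 4 residual degrees of freedom; adjusted p-values are Benjamini-Hochberg over 14537 genes, and called means under 0.05. CPM use the TMM-scaled library size, and SE is derived from the F statistic. Lengths are from GENCODE M21. The procedure was tested on simulated data. A further marker list is not reported here. Alternatives were DESeq2 1.42.0, other filters, other scaling, a 2-fold minimum, a replicate block and each library left out. The members and gene lists were chosen with earlier results of these data known. Named genes are all members, the adaptors and Card9, and at most 3 called genes per list, direction and comparison with 5 CPM or more. Bcl10, Malt1, Ptpn6, Ptpn11, Krt79, Siglecf, S100a8, S100a9, Mmp8, Csf3r, Wdfy4 and the chromosome 6 neighbours were added after their values were seen. Nothing says the pools are separate experiments, so p-values measure the spread between pools, which may be technical.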

Additional observations from a re-analysis of the deposited data

How the results depend on the processing

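In 17 alternative settings, Clec4d and Clec4e kept their direction and their call in all 3 comparisons with exAM, and so did Clec5a for exAM over tAM and exAM over HostAM. For exAM over tAM, Clec4n was not called with library size alone (adjusted p = 0.0704, edgeR). For texAM over exAM, Clec5a was lost with library size alone (0.171) and with the replicate block (0.0625, edgeR), and Clec7a with library size alone (0.130). With a 2-fold minimum, exAM over tAM had 3807 genes and 3 members called, texAM over exAM 3651 and 2, and exAM over HostAM 3740 and 3. With library size alone, 3 members were called for texAM over exAM, and the split of called genes into higher and lower was 2250 and 4274 for exAM over tAM, against 3124 and 3378 with TMM. That split was 4363 and 2042 for texAM over exAM, against 3372 and 2982 with TMM, and 2275 and 4189 for exAM over HostAM, against 3034 and 3383. The all-gene median log2 fold change then was -0.29, 0.33 and -0.26, against -0.09, 0.11 and -0.08. For texAM over tAM, 1 gene was called, against 238 with no filter, 0 with the replicate block, 73 with DESeq2 and 2 with the 4 libraries of these groups. For texAM over HostAM, 48 genes were called, against 694 with no filter, 106 with a minimum of 50 counts, 29 with the block and 385 with DESeq2; 1 member, Clec5a, was called with no filter and 1 with DESeq2. For tAM over HostAM, 6 genes were called, against 425 with no filter, 44 with a minimum of 50 counts and 190 with DESeq2. Leaving out 1 library at a time gave 3 to 5 members for texAM over exAM (3 without exAM replicate 1 or texAM replicate 2). It gave 0 to 5 genes for texAM over tAM, 1 to 90 genes and 0 to 1 members for texAM over HostAM (Clec5a, without HostAM replicate 2), and 0 to 26 genes for tAM over HostAM.

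Reversed signs were all in values not called in the edgeR test as reported. Clec12a became 0.01 with DESeq2 size factors and 0.01 in the DESeq2 test, 0.34 without exAM replicate 2 and 0.04 without tAM replicate 2 for exAM over tAM; -0.28 without exAM replicate 2 and -0.03 without texAM replicate 1 for texAM over exAM; -0.04 without texAM replicate 1 for texAM over tAM; and 0.14 without exAM replicate 2 for exAM over HostAM. Clec4d became -0.12 without texAM replicate 1 for texAM over tAM, 0.08 without texAM replicate 2 and 0.37 without HostAM replicate 2 for texAM over HostAM, and 0.14 without HostAM replicate 2 for tAM over HostAM. For texAM over HostAM, Clec4e became 0.02 with library size alone, 0.19 without texAM replicate 2 and 0.18 without HostAM replicate 2, and Clec4n -0.05 without HostAM replicate 1. For tAM over HostAM, Clec7a became -0.02 without tAM replicate 1 and -0.12 without HostAM replicate 1. Over all libraries left out in turn, these values ran between -0.43 and 0.34 for Clec12a in exAM over tAM, -0.28 and 0.49 for Clec12a in texAM over exAM, and -0.63 and 0.14 for Clec12a in exAM over HostAM. They ran between -0.12 and 0.53 for Clec4d in texAM over tAM, -0.63 and 0.37 for Clec4d and -0.27 and 0.19 for Clec4e in texAM over HostAM, and -0.87 and 0.14 for Clec4d and -0.12 and 0.30 for Clec7a in tAM over HostAM. The cause was not tested. Same-numbered libraries of different groups correlated at -0.07 to 0.01 in their deviations, so no shared shift by number was seen. Whether pools of different groups came from the same mice was not tested. With the replicate block, the members called differed for Clec5a alone. Genes over 1 count per base limit what depth can show.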
